A study of Mus musculus with 12 samples.

Results

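The 8 genes described here serve the transport of ions and osmolytes across the cell membrane and were followed in sorted mouse corticotrophs. They were 7 members of the cation chloride cotransporter family, *Slc12a1*, *Slc12a2*, *Slc12a4*, *Slc12a5*, *Slc12a7*, *Slc12a8* and *Slc12a9*, and *Slc5a3*, which encodes a transporter of myo-inositol. These 8 of the 55304 genes in the table were picked by symbol, and 7 of the 8 passed the filter of a normalised count above 0.1 in at least 3 libraries. *Slc12a5* and *Slc5a3* are in the published set of genes called different between the groups from these same libraries. The other 6 were added by family with the results known. Values and calls of *Slc12a5* and *Slc5a3* are therefore a description of the choice, and no call of either is read as a test result. *Slc12a3* is described with the lists of related genes.

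All 12 libraries came from male *Pomc*-eGFP mice on a C57Bl6/J background, in which enhanced green fluorescent protein is driven by the *Pomc* promoter. The methods give the mice as 8 weeks old, which is the age before a protocol of 8 weeks. All groups were collected at the end of that protocol, and green cells of the anterior pituitary were taken by cell sorting. Control mice (group A) drank standard water over the 8 weeks. DEX mice (group B) drank standard water for 4 weeks and then dexamethasone, a synthetic glucocorticoid, at 2.5 µg/ml over 4 weeks. The 1 week and 4 weeks recovery mice (groups C and D) had the same DEX course and then 7 or 28 days of withdrawal. Group C had standard water for 3 weeks before DEX, and group D began with DEX. Each group had 3 pools, each of 3 pituitaries by the series text and of 2 or 3 by the methods, and the pool is the replicate (n = 3). Reads on genes ranged from 7719894 to 12848078 a library. A normalised count is the read count relative to library size after scaling between libraries (CPM), and 1 read was worth 0.0787 to 0.127 of it.

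Cation chloride cotransporters set the chloride concentration inside cells and take part in volume regulation. The sodium-dependent members NKCC1 (*Slc12a2*) and NKCC2 (*Slc12a1*), the targets of loop diuretics, load chloride, and the potassium chloride cotransporters KCC1 (*Slc12a4*), KCC2 (*Slc12a5*) and KCC4 (*Slc12a7*) extrude it. KCC2 is best known from mature neurones, where low internal chloride makes GABA inhibitory. WNK kinases act on both arms through the kinases SPAK (*Stk39*) and OSR1 (*Oxsr1*) with the MO25 scaffold proteins (*Cab39*, *Cab39l*). SMIT1 (*Slc5a3*) brings in myo-inositol, an organic osmolyte and the head group of phosphoinositides. *Slc12a8* and *Slc12a9* are more distant members of the family.

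The upstream sequences of the 2 genes that the results turn on show where their transcription starts lie, which bears on how the counts can be read. *Slc5a3* (GRCm38, chr16:92058322-92087473, plus strand) lies within the span of *Mrps6*, a mitochondrial ribosomal protein gene of the same strand. In RefSeq on GRCm38.p6 the starts of *Slc5a3* and *Mrps6* were 14 bases apart, and 286 of the 300 bases around them were shared. *Slc12a5* (chr2:164960802-164999731, plus strand) had 2 annotated starts, and the counts of its 10 transcripts were deposited as a single value. The 250 bases before each start are printed 5′ to 3′, with CpG dinucleotides in capitals. They cover chr16:92058072-92058321 for *Slc5a3*, and chr2:164960596-164960845 and chr2:164967738-164967987 for *Slc12a5*.
Slc5a3: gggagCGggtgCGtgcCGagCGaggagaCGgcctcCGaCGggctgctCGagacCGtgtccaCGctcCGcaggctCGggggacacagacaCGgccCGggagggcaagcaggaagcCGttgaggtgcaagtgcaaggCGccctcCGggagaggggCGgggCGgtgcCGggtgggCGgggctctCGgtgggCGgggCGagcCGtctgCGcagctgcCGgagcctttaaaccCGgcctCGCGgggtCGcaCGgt
Slc12a5, upstream start: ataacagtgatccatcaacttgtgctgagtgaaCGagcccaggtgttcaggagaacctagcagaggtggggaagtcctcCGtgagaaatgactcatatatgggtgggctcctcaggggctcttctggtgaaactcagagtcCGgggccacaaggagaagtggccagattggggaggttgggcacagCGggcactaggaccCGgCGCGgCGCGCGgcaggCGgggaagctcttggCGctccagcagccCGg
Slc12a5, downstream start: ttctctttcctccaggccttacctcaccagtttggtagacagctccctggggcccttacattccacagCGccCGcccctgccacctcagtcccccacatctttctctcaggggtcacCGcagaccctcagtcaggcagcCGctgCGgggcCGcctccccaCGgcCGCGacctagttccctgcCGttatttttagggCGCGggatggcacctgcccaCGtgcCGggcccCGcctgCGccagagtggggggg
The *Slc5a3* stretch was 74.8% G and C with 32 CpG, and the *Slc12a5* stretches were 61.2% with 13 CpG and 67.2% with 16 CpG. Over the 250 bases before the start in all 32851 RefSeq windows, the medians were 52.4% and 6 CpG. The motifs below were sought in the whole windows of 300 bases, from 250 before to 50 after a start. Windows were found for 7 of the 8 genes, all but *Slc12a2*. None of their 11 windows held, on either strand, the glucocorticoid receptor hexamer AGAACA, the full element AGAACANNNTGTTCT, which contains that hexamer, or the TonE motif of the osmotic factor NFAT5. These were present in 19%, 0.00913% and 4.96% of all windows.

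The sorted cells carried corticotroph markers in every pool, together with transcripts of other pituitary cells. *Pomc* ranged from 34562 to 74260 in control, 4241 to 8521 in DEX, 43612 to 284740 at 1 week and 48189 to 80216 at 4 weeks. Transcripts of the somatotroph hormone gene *Gh* were abundant in all 12 libraries. They ranged 78901 to 221267 in control, 67563 to 104242 in DEX, 91792 to 220810 at 1 week and 150271 to 265851 at 4 weeks. All 5 endothelial markers (*Pecam1*, *Kdr*, *Cdh5*, *Emcn* and *Plvap*) were detected, and their sum was 6.53 to 61.9 in control, 2.82 to 7.85 in DEX, 24.1 to 155 at 1 week and 73.7 to 139 at 4 weeks. *Tbx19*, the corticotroph transcription factor, read 459, 229 and 218 in control, 769, 498 and 1490 in DEX, 282, 385 and 39.5 at 1 week and 166, 94.4 and 188 at 4 weeks. The other corticotroph markers did not all follow it under DEX. From control to DEX the mean of *Avpr1b* went from 32.6 to 100, *Crhr1* from 123 to 83.4 and *Pcsk1* from 345 to 229. *Tbx19* alone is therefore no measure of corticotroph content. The pools labelled control 3 and 1 week 3 had the lowest *Tbx19* of their groups and the highest endothelial sums. *Crhr1*, *Avpr1b* and *Pcsk1* were also lowest there, but *Pomc* of control pool 3 was 74221, near the top of its group. In such bulk samples, fewer cells of a type and less RNA per cell cannot be told apart. All pools stayed in the comparisons.

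*Slc12a5*, which encodes KCC2, was highest under DEX and lowest in both recovery groups. Its normalised counts were 15.0, 13.0 and 21.0 in the control pools, 29.2, 29.4 and 51.7 in the DEX pools, 9.41, 6.12 and 9.67 at 1 week and 7.11, 6.24 and 10.5 at 4 weeks. Every DEX pool lay above every control pool, and every recovery pool lay below every control pool, while the 1 week and 4 weeks pools overlapped. Group means ± SD (n = 3) were 16.3 ± 4.17 for control and 36.8 ± 12.9 for DEX, and 8.40 ± 1.98 and 7.94 ± 2.23 for the 1 week and 4 weeks groups. On the log2(value + 0.1) scale, DEX differed from control by 1.14 ± 0.33 (SE), a 2.21-fold higher level. The 1 week and 4 weeks groups differed from control by -0.95 ± 0.33 and -1.04 ± 0.33, so on this scale the recovery means lay about as far below the control mean as the DEX mean lay above it. Between DEX and 1 week the difference was -2.09 ± 0.33, and between DEX and 4 weeks it was -2.18 ± 0.33. The values rested on 48 to 461 reads a library.

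**Figure D1:**
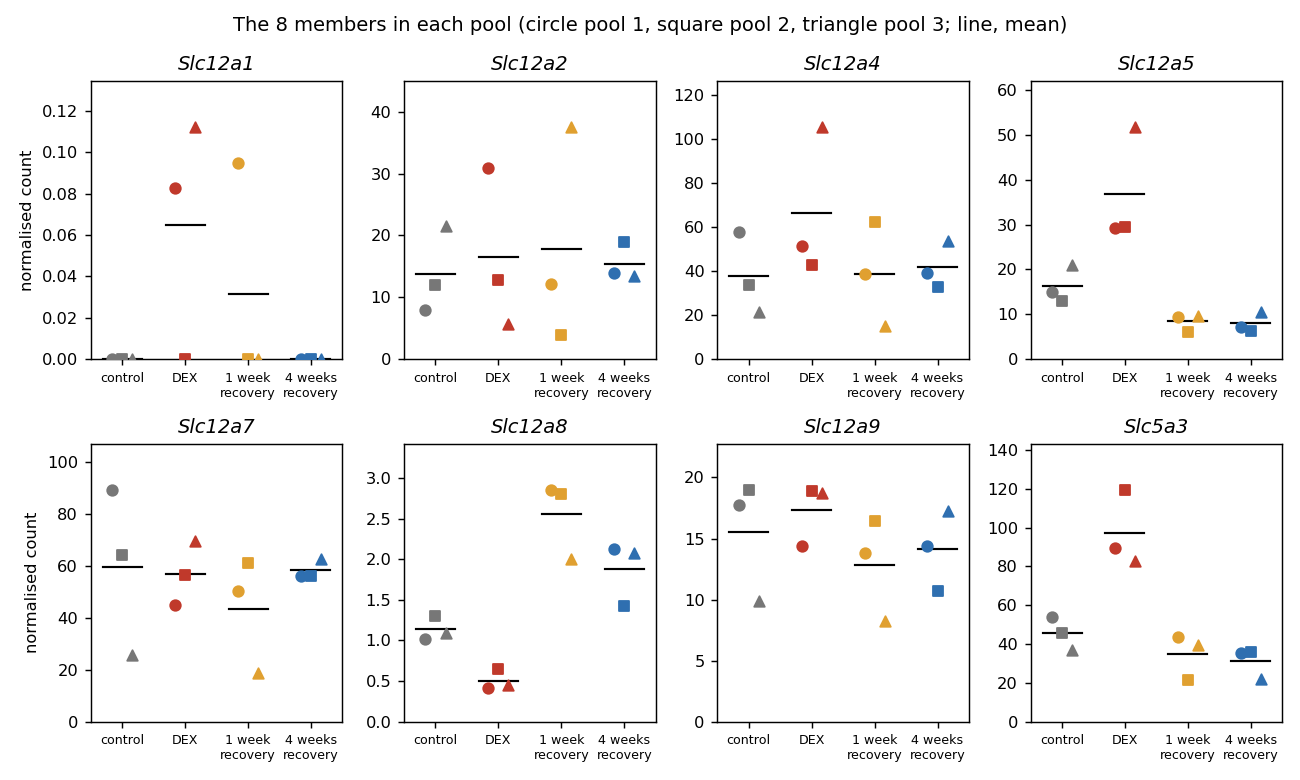
Normalised count (y axis, linear from 0, a scale for each gene) of the 8 genes in each pool of the control, DEX, 1 week and 4 weeks recovery groups (x axis), with circles, squares and triangles for pools 1, 2 and 3 and a line at the mean. The *Slc12a5* pools lay between 29.2 and 51.7 under DEX and between 6.12 and 10.5 after withdrawal, and the *Slc12a8* pools ran the other way, from 0.414 to 0.654 under DEX and 1.42 to 2.85 after it.

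*Tbx19*, like *Slc12a5*, had its highest group mean under DEX and lower means in both recovery groups than in control, but not pool by pool. In control pool 3 and 1 week pool 3 *Tbx19* was the lowest of its group and *Slc12a5* the highest, and in 1 week pools 1 and 2 *Tbx19* lay within the control range while *Slc12a5* lay below it. Per 1000 normalised counts of *Tbx19*, the *Slc12a5* count was 32.7, 56.6 and 96.3 in control, 37.9, 59.1 and 34.7 in DEX, 33.4, 15.9 and 245 at 1 week and 42.8, 66.1 and 55.7 at 4 weeks. On that ratio all 4 groups overlapped. *Tbx19* was higher in every DEX pool, and lower in every 4 weeks pool, than in any control pool. Dividing by it could thus only narrow or reverse those gaps of *Slc12a5*, so the overlap is no check on cell makeup. The endothelial sum was lowest in DEX and its part in the *Slc12a5* difference was not tested. KCC2 is a neuronal transporter elsewhere, so the 4 neuronal markers were read in the same pools. The sum of *Rbfox3*, *Slc17a7*, *Slc32a1* and *Tubb3* was 34.6 to 56.0 in control, 36.2 to 46.6 in DEX, 39.2 to 74.6 at 1 week and 39.3 to 48.0 at 4 weeks, which overlapped in all groups, and *Slc32a1* stayed below 1 in every pool.

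*Slc5a3*, which encodes the inositol transporter SMIT1, was about 2-fold higher under DEX and at or below control after withdrawal. Its normalised counts were 54.1, 45.8 and 37.1 in control, 89.3, 119 and 82.8 in DEX, 43.6, 21.3 and 39.6 at 1 week and 35.6, 36.1 and 22.0 at 4 weeks. The DEX pools did not overlap any other group, the 1 week pools overlapped control, and the 4 weeks pools lay below control with a gap from 36.1 to 37.1. The log2 differences from control were 1.09 ± 0.31 for DEX, -0.44 ± 0.31 at 1 week and -0.57 ± 0.31 at 4 weeks (SE). Against DEX the log2 differences were -1.52 ± 0.31 at 1 week and -1.65 ± 0.31 at 4 weeks. Per 1000 counts of *Tbx19*, *Slc5a3* read 118, 200 and 170 in control and 116, 240 and 55.5 in DEX, so these groups overlapped on that ratio. As for *Slc12a5*, dividing by *Tbx19* could only narrow or reverse the DEX gap, so this overlap is no check on cell makeup.

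Because *Slc5a3* and *Mrps6* start within a few bases of each other, their counts were set side by side. *Mrps6*, which is also in that published set, read 47.0, 40.2 and 63.5 in control, 95.3, 74.8 and 179 in DEX, 37.0, 54.7 and 42.6 at 1 week and 31.5, 37.8 and 46.4 at 4 weeks. Its log2 difference between DEX and control was 1.14 ± 0.31, close to that of *Slc5a3*. The pools of highest value were not shared, since DEX pool 2 was highest for *Slc5a3* and DEX pool 3 for *Mrps6*. The ratio of *Slc5a3* to *Mrps6* was 1.15, 1.14 and 0.584 in control, 0.937, 1.59 and 0.463 in DEX, 1.18, 0.389 and 0.930 at 1 week and 1.13, 0.957 and 0.475 at 4 weeks, and it overlapped in all groups. Of the 10913 exon bases of *Slc5a3*, 159 (1.46%) also belonged to *Mrps6* or to the read-through gene *Gm49711*. By annotated exons the 2 genes thus shared little, though the counts of *Mrps6* are less certain because 19.9% of its exon bases were shared. Only exons were compared. *Slc5a3* lies within the span of *Mrps6* on the same strand. Whether RNA of *Mrps6* or *Gm49711* was counted on *Slc5a3* was not tested.

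**Figure D2:**
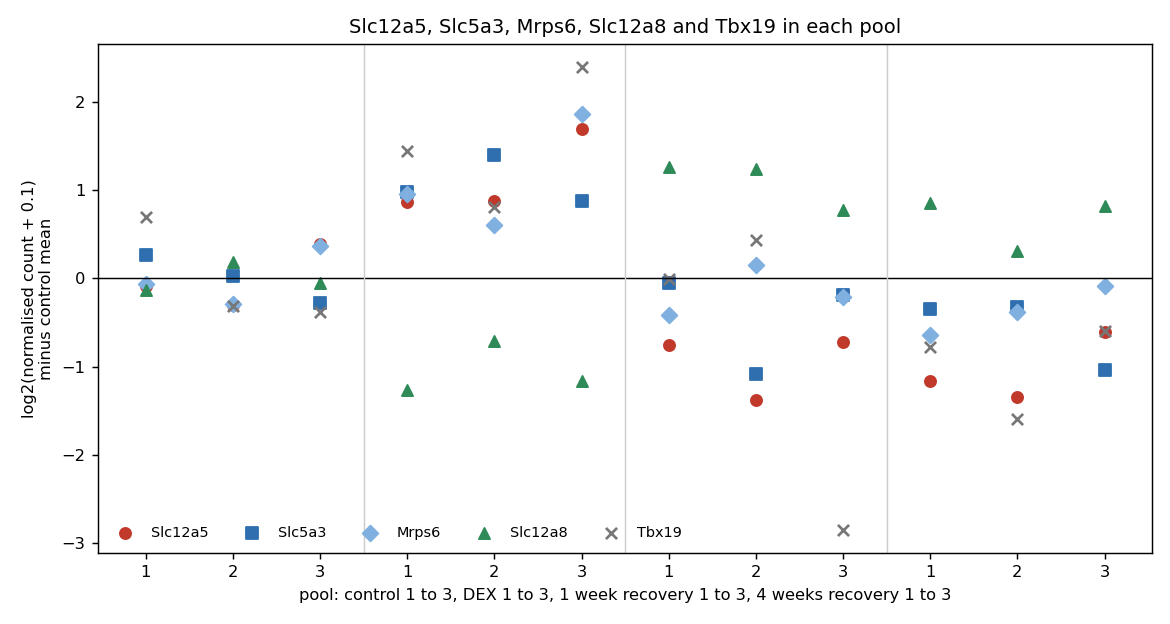
Log2(normalised count + 0.1) of *Slc12a5*, *Slc5a3*, *Mrps6*, *Slc12a8* and *Tbx19* minus the mean of the control pools (y axis) in each of the 12 pools (x axis), each point being a pool. *Slc12a5*, *Slc5a3* and *Mrps6* lay above 0 in all 3 DEX pools and *Slc12a8* lay below it, and *Tbx19* of 1 week pool 3 lay far below all other points.

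*Slc12a8* (chr16:33517328-33664135, plus strand), a distant family member that has been described as a nicotinamide mononucleotide transporter, ran opposite to *Slc12a5*. It was expressed at a low level, from 4 to 30 reads a library. The normalised counts were 1.02, 1.30 and 1.09 in control, 0.414, 0.654 and 0.449 in DEX, 2.85, 2.80 and 2.0 at 1 week and 2.12, 1.42 and 2.08 at 4 weeks. Every DEX pool lay below every control pool and every recovery pool lay above. The log2 differences from control were -1.04 ± 0.50 for DEX, 1.09 ± 0.50 at 1 week and 0.66 ± 0.50 at 4 weeks (SE). With limma, the adjusted p over all genes was 0.741, 1 and 0.887 for these contrasts, 0.0724 for 1 week against DEX and 0.154 for 4 weeks against DEX, so none passed, and the F test gave 0.192. The log2 difference of 1 week from DEX was 2.13 ± 0.50 with the offset of 0.1 and 1.23 with an offset of 1, at which its limma adjusted p was 0.0467. Over 26 alternatives that adjusted p ranged from 0.00403 to 0.339 and passed in 4, among them DESeq2 and array weights, and in none of the 12 that left out 1 library. For 4 weeks against DEX the adjusted p ranged from 0.0381 to 0.431 and passed in 2 of 26, DESeq2 and array weights. Per 1000 counts of *Tbx19*, *Slc12a8* read 2.23, 5.66 and 4.99 in control and 0.538, 1.31 and 0.301 in DEX. The recovery pools read 10.1, 7.28 and 50.7 at 1 week and 12.8, 15.1 and 11.05 at 4 weeks. The order of DEX, control and recovery without overlap was the same on that ratio. *Tbx19* itself was higher in every DEX pool, and lower in every 4 weeks pool, than in any control pool. Dividing by it could thus only widen those gaps, so the ratio is no check on cell makeup there. The 1 week pools of *Tbx19* overlapped control. Over the 12 libraries the Pearson correlation of *Slc12a8* was -0.64 with *Tbx19* and 0.90 with *Pomc*. The summed macrophage and white blood cell markers (5 of 5 detected) were 42.6 to 117 in control, 15.7 to 22.7 in DEX, 74.2 to 122 at 1 week and 83.9 to 183 at 4 weeks, and their part in the *Slc12a8* difference was not tested. The part of cells expressing *Gh*, whose ranges are given above, was not tested either.

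The chloride loaders gave no difference between groups that exceeded the spread of the pools. *Slc12a2* (NKCC1) read 7.95, 11.9 and 21.5 in control, 30.9, 12.8 and 5.72 in DEX, 12.1, 3.95 and 37.5 at 1 week and 13.9, 18.9 and 13.4 at 4 weeks. The range within DEX and within 1 week was wider than any distance between group means, and the standard error of each contrast was 0.68 on the log2 scale (limma, adjusted p of the F test over all genes 0.997). *Slc12a1* (NKCC2, chr2:125152505-125230002, plus strand), the renal form, had a single read in each of DEX pools 1 and 3 and 1 week pool 1 and none in the other 9 libraries. A count of 0 allows a normalised count of up to 0.236 to 0.382 by library, taking 3 reads as the limit, which covers counting error only, and all values lay below it.

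The balance of extruder and loader was read as the ratio of *Slc12a5* to *Slc12a2*, each per kilobase of exon. It was 2.77, 1.60 and 1.43 in control, 1.38, 3.38 and 13.3 in DEX, 1.14, 2.27 and 0.379 at 1 week and 0.753, 0.483 and 1.15 at 4 weeks. DEX and 1 week overlapped control on this ratio, and the 4 weeks pools lay below all control pools. The high ratio of DEX pool 3 came with the lowest *Slc12a2* and the highest *Slc12a5* of its group.

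The other potassium chloride cotransporters among the 8 genes, which share the direction of transport with KCC2, showed no such separation of the groups. *Slc12a4* (KCC1, chr8:105943590-105966097, minus strand) read 58.0, 33.8 and 21.4 in control, 51.6, 42.8 and 105 in DEX, 38.9, 62.5 and 15.0 at 1 week and 39.0, 32.7 and 53.5 at 4 weeks. *Slc12a7* (KCC4, chr13:73733094-73816754, plus strand) read 89.3, 64.4 and 25.7 in control, 44.9, 56.6 and 69.5 in DEX, 50.3, 61.1 and 18.8 at 1 week and 56.4, 56.2 and 62.8 at 4 weeks. All groups overlapped for both genes. The limma adjusted p of the F test over all genes was 0.846 for *Slc12a4* and 0.935 for *Slc12a7*, with log2 differences of DEX from control of 0.82 ± 0.48 and 0.09 ± 0.44 (SE). An antisense gene, *Gm16156*, overlaps 361 of the 4279 exon bases of *Slc12a4*, where reads of the 2 genes may not have been kept apart. *Slc12a9* (chr5:137314558-137333597, minus strand), which encodes a family member without an agreed substrate, ranged from 8.23 to 19.0 over the 12 pools, with overlap of all groups and a limma adjusted p of 0.940.

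A pair of pools stood apart for several members at the same time. In control pool 3 and in 1 week pool 3, *Slc12a4*, *Slc12a7* and *Slc12a9* were below both other pools of the group and *Slc12a2* was above both. *Slc12a5* was above both other pools there, at 21.0 and 9.67. The same pools had the lowest *Tbx19* and the highest endothelial sums of their groups, and the part of these in the differences was not tested.

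**Figure D3:**
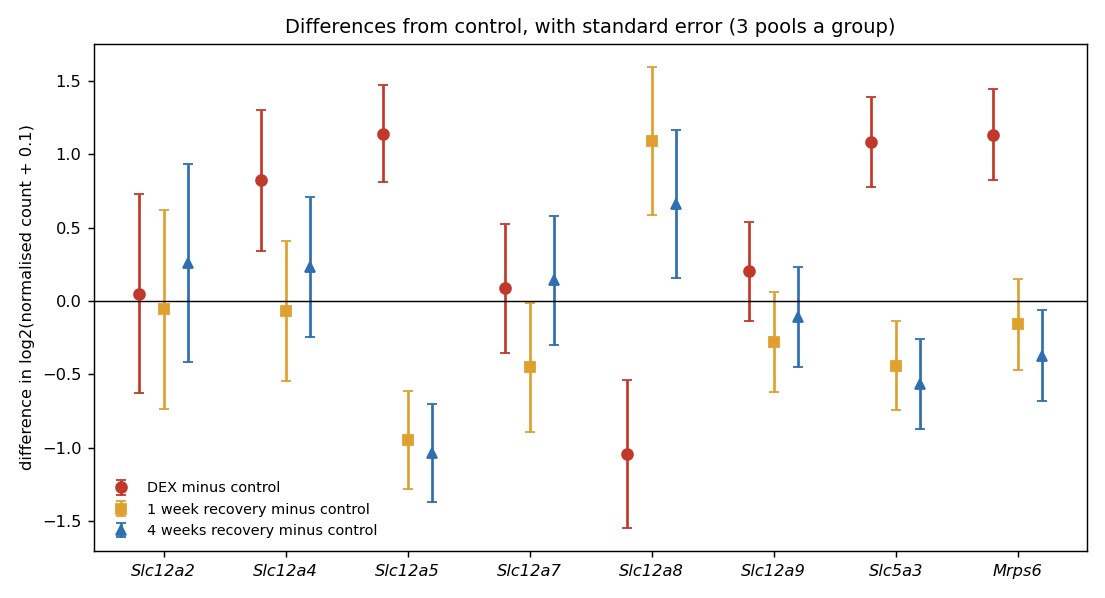
Difference from control in log2(normalised count + 0.1) with its standard error (y axis) for the 7 genes above the filter and *Mrps6* (x axis), for DEX, 1 week and 4 weeks recovery with 3 pools a group. *Slc12a5* (1.14) and *Slc5a3* (1.09) were above 0 under DEX and below 0 in both recovery groups, *Slc12a8* was the reverse, and *Slc12a2*, *Slc12a7* and *Slc12a9* lay within 0.5 of 0.

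Counted over the family, 1 of the 7 tested genes, *Slc12a5*, passed the limma F test over the 4 groups, where 0.315% of the 24736 genes tested passed. Without DEX pool 1, DEX pool 3 or 4 weeks pool 2 none of the 7 passed, and 12, 7 and 29 of all genes did. Without 1 week pool 1, 2 or 3 *Slc5a3* passed as well, with 130, 113 and 186 of all genes. In DEX against control no member passed, against 0.121% of all genes. Before adjustment, 2 members had a limma p under 0.05, as did 1682 of all genes (6.80%). For the members, edgeR and DESeq2 on the recovered reads also gave 0. In 1 week and in 4 weeks against control no member passed, nor did any of the 24736 genes (0.0% in both, with 938 and 1570 genes at an unadjusted p under 0.05, and 2 and 0 genes by edgeR's quasi-likelihood test, 50 and 94 by its likelihood ratio test and 8 and 60 by DESeq2). Of the members, 2 and 1 were at an unadjusted p under 0.05, and edgeR and DESeq2 gave 0. In 1 week and in 4 weeks against DEX the 2 genes past the threshold were *Slc12a5* and *Slc5a3*, both lower. The share of all genes was 0.433% and 0.873%. Without DEX pool 3 neither passed in either contrast (7 and 29 of all genes did). Without 4 weeks pool 2 neither passed in 4 weeks against DEX (21 of all genes did). Both were picked because these same libraries called them different, so that they pass was largely set in advance and nothing is read from their count beside the share of all genes.

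Groups that did not overlap were more frequent. In DEX against control 3 of the 7 genes did not overlap (*Slc12a5*, *Slc12a8* and *Slc5a3*), as did 12.8% of all genes tested. The number was 2 in 1 week against control (6.08% of all genes), 3 in 4 weeks against control (13.2%), 3 in 1 week against DEX (13.8%) and 3 in 4 weeks against DEX (19.5%). The full pattern of *Slc12a5* and *Slc12a8*, with all DEX pools on one side of control and all pools of both recovery groups on the other, was seen in 26 of the 24736 genes (0.105%).

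Levels were compared between genes only per kilobase of annotated exon. In control the order was *Slc12a4* (8.82 ± 4.35), *Slc12a7* (4.72 ± 2.53), *Slc5a3* (4.19 ± 0.781), *Slc12a9* (3.10 ± 0.982), *Slc12a5* (2.19 ± 0.560), *Slc12a2* (1.26 ± 0.640) and *Slc12a8* (0.255 ± 0.0321) normalised counts per kilobase (SD, n = 3). Each gene overlapped its neighbour in this order except *Slc12a8*, which lay below *Slc12a2*. Under DEX *Slc5a3* (8.90 ± 1.78) stood above *Slc12a5* (4.94 ± 1.74) without overlap, and *Slc12a5* stood above *Slc12a9* (3.45 ± 0.506) without overlap. In both recovery groups *Slc12a5* (1.13 ± 0.266 and 1.07 ± 0.30) came after *Slc12a2* in the order of means, with overlapping pools.

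**Figure D4:**
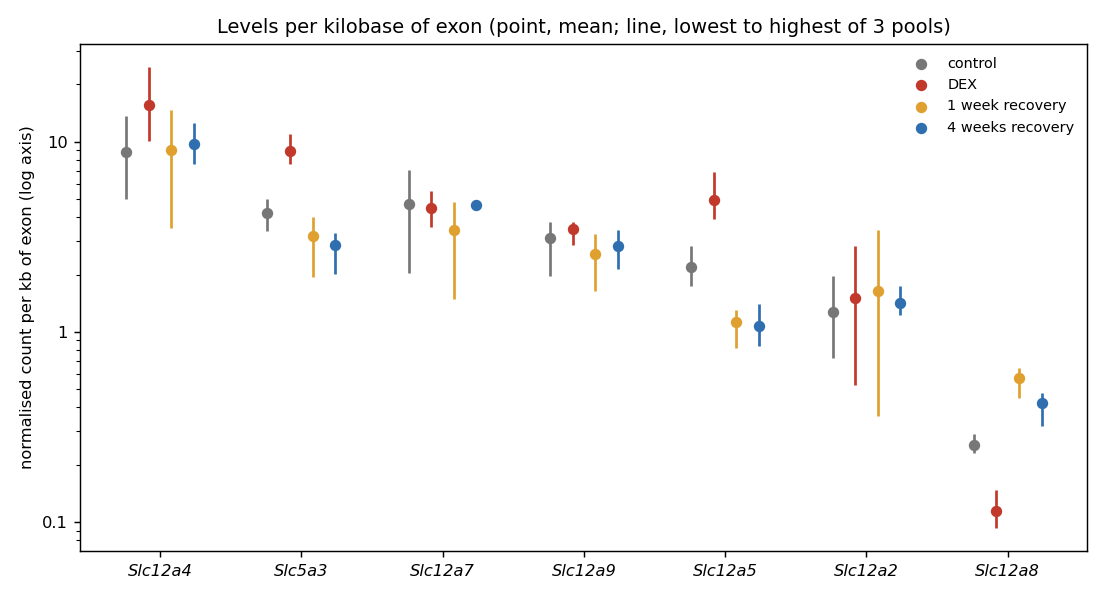
Normalised count per kilobase of exon (y axis, logarithmic) of 7 genes (x axis) by group, with a point at the mean and a line from the lowest to the highest of 3 pools. *Slc12a4* was the highest in every group by its mean, *Slc12a8* was the lowest, and *Slc12a5* and *Slc5a3* were the genes whose DEX line lay above all others of the same gene.

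Related genes were read from 6 lists of 62 genes, of which 59 passed the filter. None of the 59 passed the limma F test over the 4 groups (0.315% of all genes did), and 11 had an unadjusted p under 0.05. The share of all genes at an unadjusted p under 0.05 in the F test was not counted. Nothing is therefore read from such counts in the lists. By edgeR's quasi-likelihood test, its likelihood ratio test and DESeq2, 1, 7 and 3 of the 59 passed. Of all 24736 genes, 165, 1047 and 734 passed by these tools. The median log2 difference of DEX from control was 0.08 over the 59 genes and -0.02 over all genes tested. *Slc12a3*, the thiazide-sensitive renal cotransporter, had 11 reads in all, and the limma adjusted p of the F test was 0.955.

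All 11 genes of the WNK pathway list passed the filter and none passed the limma F test. At an unadjusted p under 0.05 there were 3, and 1 passed with edgeR's quasi-likelihood test (*Cab39l*), 4 with its likelihood ratio test (*Cab39l*, *Cab39*, *Stk39* and *Wnk1*) and 1 with DESeq2 (*Cab39l*). There were 7 positive and 4 negative differences of DEX from control and a median of 0.27. The genes of highest level were *Cab39l*, *Cab39* and *Wnk1*. *Cab39l*, which encodes the scaffold MO25β and is in the published set, read 70.3, 48.2 and 40.1 in control, 201, 89.2 and 284 in DEX, 73.0, 64.0 and 28.2 at 1 week and 56.7, 55.6 and 56.8 at 4 weeks. The DEX pools of *Cab39l* lay above all pools of the other groups, a log2 difference from control of 1.74 ± 0.40 (SE). As it was called from these libraries, its calls by the count tools, which for DESeq2 include DEX against control, are not independent. *Cab39* (MO25α) read 46.4, 58.0 and 72.8 in control and 169, 73.3 and 78.8 in DEX, with a limma adjusted p of the F test of 0.249. *Wnk1*, which encodes the chloride-sensing kinase, read 44.6, 41.7 and 96.7 in control, 40.8, 30.9 and 16.1 in DEX, 40.5, 11.5 and 130 at 1 week and 41.4, 27.9 and 28.2 at 4 weeks. Its DEX and 4 weeks pools lay below all control pools, by narrow gaps, and the limma adjusted p was 0.905. Of all genes, 12.8% did not overlap in DEX against control and 13.2% in 4 weeks against control. *Stk39* (SPAK), named after its values were seen, read 19.0, 21.0 and 41.6 in control and 82.7, 36.4 and 36.4 in DEX and overlapped.

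In the list of inositol uptake and turnover, 8 of 9 genes passed the filter and none passed the limma F test (2 at an unadjusted p under 0.05, and 0, 1 and 0 by edgeR's quasi-likelihood test, its likelihood ratio test and DESeq2), with 4 positive and 4 negative differences of DEX from control and a median of 0.01. *Cdipt* (phosphatidylinositol synthase), *Impa1* (inositol monophosphatase) and *Isyna1* (inositol-3-phosphate synthase) had the highest levels, and their limma adjusted p ranged from 0.913 to 0.961. The DEX and control pools overlapped for all 8 of these genes, where 12.8% of all genes tested did not overlap. Those of *Slc5a3* did not overlap, but it was chosen from these libraries, so nothing is read from that contrast. The second myo-inositol carrier of the sodium-dependent type, *Slc5a11*, stayed at or below 0.667, and the proton-coupled carrier *Slc2a13* read 18.9, 17.0 and 16.5 in control, 45.9, 28.5 and 14.1 in DEX, 17.2, 7.14 and 28.9 at 1 week and 28.7, 51.1 and 56.1 at 4 weeks. Its 4 weeks pools lay above all control pools, a log2 difference of 1.32 ± 0.47 (SE) with an unadjusted p of 0.0131 and an adjusted p of 0.678 by limma. Of all genes, 13.2% did not overlap in 4 weeks against control.

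Of the 8 osmotic response genes none passed the limma F test (2 at an unadjusted p under 0.05, and 0, 0 and 1 by the same tools), with 5 positive and 3 negative differences of DEX from control and a median of 0.18. The genes of highest level were *Hspa4l*, *Slc38a2* and *Sgk1*. *Hspa4l*, an osmotic stress chaperone, had a log2 difference of DEX from control of 0.86 ± 0.32 (SE) and a limma adjusted p of 0.413 in the F test. *Slc6a6*, the taurine transporter, was the only list gene that passed 1 of the 5 limma contrasts, that of 1 week against DEX. It read 50.9, 72.3 and 80.4 in control, 41.8, 47.3 and 34.5 in DEX, 105, 85.9 and 85.8 at 1 week and 77.6, 62.3 and 73.8 at 4 weeks, so its DEX and 1 week pools lay in the reverse order of those of *Slc5a3*. Its log2 difference of 1 week from DEX was 1.16 ± 0.24 with a limma adjusted p of 0.0448. Over 26 alternatives the adjusted p ranged from 0.000265 to 0.283, and it passed in 3 of the 12 that left out 1 library, those without control pool 1, control pool 3 or 1 week pool 3. *Nfat5*, which encodes the osmotic transcription factor, ranged from 6.88 to 43.2 and all groups overlapped.

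The chloride channel and bicarbonate exchanger list (20 of 21 genes above the filter) and the sodium pump list (10 of 11) had no gene past the limma F test, with 2 genes each at an unadjusted p under 0.05. By the same tools, in the same order, 0, 0 and 0 of the first list and 0, 2 and 1 of the second passed. Differences of DEX from control were positive for 13 and negative for 7 of the channel and exchanger genes (median 0.15), and positive for 4 and negative for 6 of the pump genes (median -0.12). *Clcn3*, *Clcn4* and *Clcn7* were the highest of the first list, with limma adjusted p from 0.952 to 0.998, and *Atp1b1*, a pump subunit of the second, had 0.978.

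**Figure D5:**
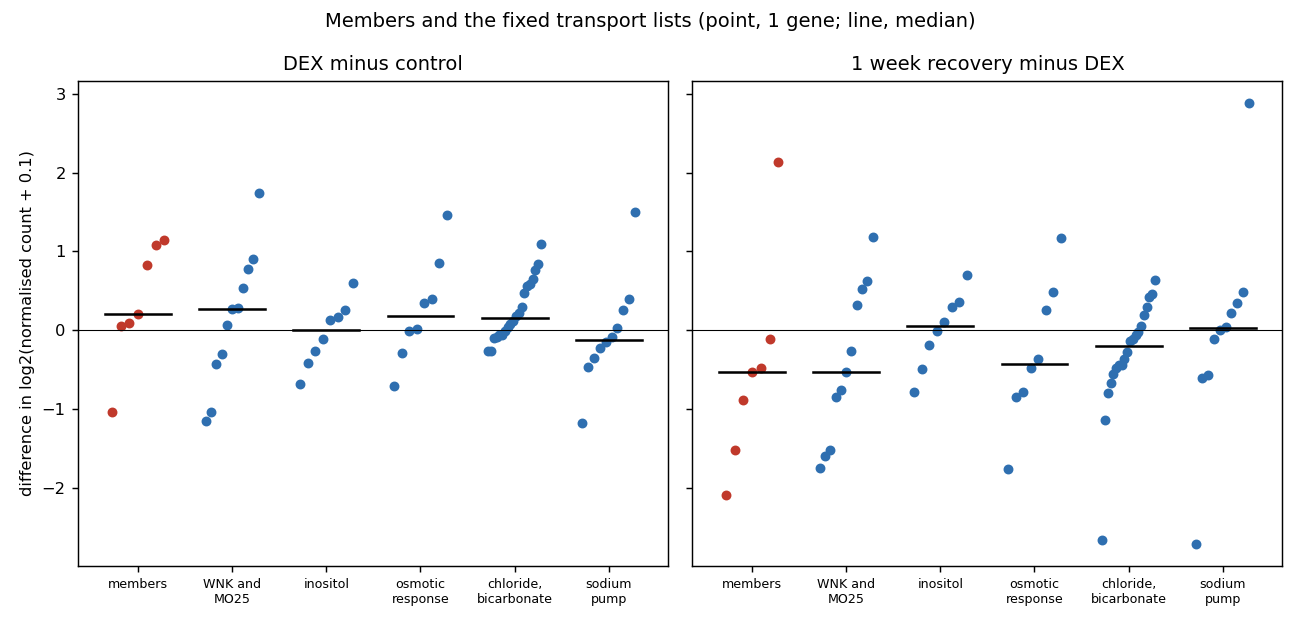
Difference in log2(normalised count + 0.1) of DEX minus control (left) and of 1 week recovery minus DEX (right) on the y axis, for the 7 tested genes and 5 of the lists (x axis), each point being a gene and each line a median. *Cab39l* (1.74) was the highest point on the left, and *Slc12a5* and *Slc12a8* stood at the bottom and top of the 7 genes on the right.

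Genes of the most similar pattern were taken by Pearson correlation of log2(value + 0.1) over the 12 libraries, among 15755 other genes with a mean of at least 1. For *Slc12a5* they were *Kcnh4*, which encodes a voltage-gated potassium channel (r = 0.94), *Gm11716* (0.93) and *Cpne4* (0.93). For *Slc5a3* they were *Srgap2* (0.95), *Hif3a* (0.93) and *Frmd4a* (0.92), and for *Slc12a8* they were *Il16* (0.96), *Aga* (0.94) and *Nmb* (0.92). *Slc12a2* was nearest to *Arfgef1* (0.98), *Mib1* (0.97) and *Ddhd1* (0.96), *Slc12a4* to *Slc27a1* (0.96), *Camk2b* (0.95) and *Slc9a8* (0.95), *Slc12a7* to *Rtn4ip1* (0.96), *Atp2a3* (0.96) and *Cluh* (0.96), and *Slc12a9* to *Ap5z1* (0.92), *Atp2a3* (0.92) and *Vps16* (0.90). Among the 8 genes themselves, r was 0.80 between *Slc12a5* and *Slc5a3*, -0.89 between *Slc12a5* and *Slc12a8*, and 0.81 to 0.86 among *Slc12a4*, *Slc12a7* and *Slc12a9*. These values describe 12 libraries that share group, depth and cell makeup.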

How the data were processed

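RNA of sorted *Pomc*-eGFP cells, below the detection limit at extraction, was amplified with SMART-V4 and made into Nextera XT libraries. Per the methods, the authors trimmed reads (Trim Galore 0.6.5), aligned them to GRCm38 with Ensembl release 98 (STAR 2.7.1a) and counted pairs of mapping quality 20 or more on genes in strand-specific mode (featureCounts 2.0.0). What was deposited is a normalised signal for every gene, the CPM on the TMM-scaled library size by edgeR, and 100% of the 271881 values above 0 came back as whole reads (within 1e-06). The design had assumed plain CPM, and its test was kept.

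Here log2(value + 0.1) of the 24736 genes above 0.1 in at least 3 libraries was fitted with limma 3.58.1 (eBayes with trend, R 4.3.3), all 12 libraries in 1 model without covariates, with an F test across the 3 differences from control, adjusted over all genes by Benjamini-Hochberg. An adjusted p under 0.05 was called. Fold changes are on that log2 scale and understate changes of low genes. edgeR 4.0.16 and DESeq2 1.42.0 on the recovered reads were alternatives, with other offsets, filters, scalings, array weights, the replicate number as a block and each library left out. The fits were tested on simulated data. Exon lengths and positions came from GENCODE M21 (GRCm38), upstream sequences from RefSeq (GRCm38.p6).

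The members, lists and markers were chosen with earlier results of these data known. Named were all members, *Pomc*, genes overlapping a member on its strand, from each list the genes past the F test and the 3 of highest mean, and for each member with a mean of at least 1 the 3 most correlated genes. *Stk39*, *Slc5a11*, *Slc2a13*, *Slc6a6* and *Nfat5* were named after their values were seen. Some list genes are not reported here. P-values measure the spread between pools, and amplification noise comes on top of counting error. No library pair was a copy of another.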

Additional observations from a re-analysis of the deposited data

Results flagged for a closer look

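Several genes lay on opposite sides of control under DEX and after withdrawal, or differed between these conditions by test. In *Slc12a5* all DEX pools were above and all recovery pools below control, with a log2 difference from DEX of -2.09 at 1 week and -2.18 at 4 weeks. In *Slc12a8* all DEX pools were below and all recovery pools above control, with differences of 2.13 and 1.71. In *Slc5a3* the 4 weeks pools and the DEX pools were on opposite sides of control, a difference of -1.65, and at 1 week the recovery pools overlapped control with a difference from DEX of -1.52. *Slc5a3* and *Slc12a5* were chosen from these libraries, so their differences are descriptions, and for *Slc12a8* the limma adjusted p of the difference was 0.0724 and 0.154. Whether the DEX effect and the recovery effect of a gene differ, beyond this placing of the pools on either side of shared control pools, was not tested separately. The taurine transporter *Slc6a6* passed the limma test of 1 week against DEX, at 1.16 on the log2 scale (adjusted p = 0.0448), with its DEX pools below and its 1 week pools above all controls.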

How the results depend on the processing

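Of 910 refitted log2 differences of the members, 903 moved by less than 1 residual SD of the gene and none changed sign as a called value. The other 7 were all of *Slc12a8* with offsets of 0.5 or 1, where DEX against control was -0.71 and -0.51, 1 week against DEX 1.60 and 1.23, 4 weeks against DEX 1.23 and 0.93, and 1 week against control 0.73 with an offset of 1, since larger offsets shrink low genes. This limit is wide for genes of wide spread, so staying within it does not show a stable estimate. *Slc12a2* in 1 week against control ran from -0.86 to 0.74, with the main sign in 18 of 26 alternatives. *Slc12a7* in DEX against control ran from -0.43 to 0.46, with the main sign in 19 of 26. *Slc12a5*, *Slc5a3* and *Slc12a8* kept their sign in 26 of 26 in every difference from control or from DEX. Members past the F test numbered 1, and 3 with array weights and with DESeq2, 2 with either edgeR test, 2 with control pool 3 and 1 week pool 3 both left out (chosen after seeing the data), and 0 to 2 with 1 library left out. Of all genes, 78 passed in the main fit, 1069 with array weights, 734 with DESeq2 and 165 and 1047 with the edgeR tests. Without both of these pools 259 of all genes passed, and with 1 library left out 7 to 186 did. In DEX against control array weights gave 1 in place of 0. In 1 week against DEX, 2 members passed, 3 with an offset of 1, a filter at 1, array weights or DESeq2, 1 with quantile normalisation, 0 with only the 2 groups compared in the model (6 libraries) and 0 to 2 with 1 library left out. In 4 weeks against DEX, 2 passed, 3 with array weights or DESeq2, 0 with only those groups and 0 to 2 with 1 library left out. Where 3 passed in these comparisons, the member added was *Slc12a8*. Over all genes, array weights called 166 in DEX against control. In 1 week against DEX all genes gave 107, 149 with an offset of 1 and 112 with a filter at 1. They gave 566 with array weights, 573 with DESeq2, 116 with quantile normalisation and 0 with only the 2 groups. In 4 weeks against DEX they gave 216, 1300 with array weights, 655 with DESeq2 and 21 with only the 2 groups. List genes past the F test numbered 0, and 5 with array weights, 1 with edgeR's quasi-likelihood test, 7 with its likelihood ratio test, 3 with DESeq2, 1 without both of the named pools and 0 to 2 with 1 library left out. The cause of these differences in counts was not tested.

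The labels do not say whether pools of the same replicate number belong together, and the correlations did not settle it. Deviations from group means correlated from -0.29 to 0.40 over 18 pairs of the same number and from -0.27 to 0.38 over 36 other pairs. Of the 18 pairs 7 were over 0.1, and of the 36 pairs 7 were. The highest, 0.40, was between control pool 3 and 1 week pool 3. With the replicate number as a block, 1 member passed the F test, 2 passed in 1 week and 2 in 4 weeks against DEX, 0 passed against control and 0 list genes passed the F test. With the block in edgeR's quasi-likelihood test, added after seeing the data, 2 members and 1 list gene passed the F test. Over all genes the F test passed 85 with the block and 78 without it in limma. In edgeR's quasi-likelihood test these were 260 and 165.

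With 3 pools a group and 1 read worth up to 0.127, *Slc12a8* rests on few reads and *Slc12a1* could not be tested.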
